A study of Mus musculus with 2 samples.

Results

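Interleukin 1, tumour necrosis factor and inflammasome genes were followed through the CD11b-selected cells of the mouse retina, in oxygen-induced retinopathy (OIR) and in control pups. The 10 genes were taken by symbol from the 31053 genes of the files: the cytokines Il1a, Il1b, Tnf, Il6 and Il18, the inflammasome sensors Nlrp3 and Aim2, the adaptor Pycard, the protease Casp1 and the pore-forming protein Gsdmd. All 10 were found. The OIR library came from 6 pooled pups, wild type on the C57BL/6 strain and taken at postnatal day 17, after 75% oxygen from day 7 to day 12 and a return to room air, a schedule after which parts of the retina lack vessels and oxygen. The control library came from 6 pooled pups of the same genotype, strain and age, and only its disease-state label and its title set it apart, since the oxygen treatment is described in the same words for both samples. Both pools of retinas were digested with papain at 15 U/mL and 34 °C, and cells bound by beads against CD11b, a surface integrin subunit of microglia and other myeloid cells, were sequenced.

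Microglia, the resident macrophages of the retina, answer danger signals in steps. Toll-like receptors and cytokine receptors act through NF-κB to switch on Tnf, Il1a, Il1b, Il6 and Nlrp3, many of whose messages are short-lived. A sensor such as NLRP3 or AIM2 then gathers the adaptor ASC, encoded by Pycard, and activates caspase-1, which cuts pro-interleukin 1β and pro-interleukin 18 into their released forms and cuts gasdermin D, encoded by Gsdmd, into a membrane pore. Interleukin 1α signals through the same receptor as interleukin 1β and needs no such cut. RNA levels show the supply of these parts and not the activity of the inflammasome, which was not measured.

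The OIR library held 7283 cell barcodes and 49773742 unique molecular identifiers (UMIs, counts of captured RNA molecules), and the control library held 10826 barcodes and 50081145 UMIs. The doublet caller marked 0 and 1 cells at its own threshold, so the 424 OIR and 938 control barcodes with the highest doublet scores were removed instead. After this and filters on genes and mitochondrial RNA, 6132 OIR cells and 8585 control cells were kept. The 2 libraries shared 89 barcodes, and in 71 of these one side held at most 1.54% of the UMIs of the other, but no such small partner was among the microglia-like cells. Although the labels call the cells retinal microglia, 3599 OIR cells and 6680 control cells were rod-like by their marker genes. Microglia-like cells numbered 569 in OIR, with a median of 7038 UMIs per cell, and 699 in control, with a median of 7398 UMIs. With a single library per group there is nothing to judge a difference against but counting error, and no p-value is given. Levels are counts per 1e+06 UMIs of the cell class (CPM). How well the RNA of each gene was captured was not measured, so levels of different genes are not comparable. A gene was called higher or lower at 1.5-fold, where its mean over both libraries was at least 10 CPM with at least 20 UMIs in all. Intervals in parentheses are exact 95% intervals that cover counting error only, and neither the spread between cells nor that between mice. Within a summed class, fewer expressing cells and less RNA per cell cannot be told apart, except where values per cell are given.

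Nearly all RNA of these genes lay in myeloid cells, with Il18 as the exception. Myeloid cells held 85.7% to 98.9% of the UMIs of the 9 other members in OIR, and 94.2% to 99.0% in control. Of Il18, the caspase-1 substrate that acts on lymphocytes, 31.7% of 656 UMIs were myeloid in OIR, against 37.5% of 586 UMIs in control. Müller glia-like cells, the radial support cells of the retina, held 29.4% of Il18 UMIs in OIR and 23.0% in control. Rod-like cells served as a gauge of free RNA, and their levels were between 0.186 CPM for Casp1 and Gsdmd and 10.2 CPM for Pycard in OIR, and between 0.0563 CPM for Il6 and 4.39 CPM for Il18 in control.

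In the microglia-like cells as a whole, Il1a was the member furthest from equal levels between the libraries, and it was lower in OIR. Il1a, which encodes the interleukin 1 ligand that needs no caspase-1 cut, had 1169 UMIs or 186 CPM in OIR microglia-like cells, against 2528 UMIs or 401 CPM in control microglia-like cells, a log2 ratio of -1.11 (-1.21 to -1.01). Il1b had 164 CPM in OIR and 149 CPM in control, a log2 ratio of 0.14 (0.01 to 0.27). Tnf, the gene of a cytokine that acts on vessels and glia, had 255 CPM in OIR and 199 CPM in control, a log2 ratio of 0.35 (0.25 to 0.46). Il1a alone of the 3 was past 1.5-fold, and the ratios of its neighbour Il1b and of Tnf were above 0 but within 1.5-fold. Il6, the gene of an acute-phase cytokine, was barely detected, with 15 UMIs in OIR and 22 UMIs in control, or 2.38 CPM and 3.49 CPM, which is under the level filter. Il18 had 22.4 CPM in OIR and 29.5 CPM in control, a log2 ratio of -0.40 (-0.73 to -0.08), within the limit of 1.5-fold.

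Of the inflammasome genes, Pycard stood near equal levels and the other 4 had log2 ratios below 0. Both sensors were lower: Nlrp3, which answers potassium loss and crystals, had 51.1 CPM in OIR and 89.4 CPM in control, a log2 ratio of -0.81 (-1.01 to -0.61). Aim2, which binds DNA in the cytosol, had 53.7 CPM in OIR and 95.7 CPM in control, a log2 ratio of -0.83 (-1.03 to -0.64). The adaptor Pycard had 423 CPM in OIR and 397 CPM in control, a log2 ratio of 0.09 (0.01 to 0.17), so the shared scaffold gene was at like levels in both libraries. The protease gene Casp1 had 32.9 CPM in OIR and 47.6 CPM in control, a log2 ratio of -0.53 (-0.80 to -0.27), just inside the limit. The pore gene Gsdmd had 36.8 CPM in OIR and 59.1 CPM in control, a log2 ratio of -0.68 (-0.92 to -0.44). Gsdmd was inside the limit at a log2 ratio of -0.55 when libraries were scaled by the median of gene ratios, a scaling that brings the all-gene median of -0.13 to 0 and raises every ratio by the same amount. Under a coarser clustering Gsdmd lay at -0.48, but over another set of 383 OIR and 824 control microglia-like cells. That clustering left out a cluster of 224 OIR and 20 control cells, named neutrophil, with S100a9, Mmp12 and Spp1 among its leading genes. It also took in a shallow cluster of 206 OIR and 132 control cells with Hmox1 and Rgs10 among its leading genes. Of the 9 members past the filter, 0 were at least 1.5-fold higher, where 11.2% of all 7857 genes past the filter were, and 4 were at least 1.5-fold lower, where 18.3% of all genes were. The median log2 ratio was -0.53 for these 9 members and -0.13 for all genes.

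**Figure D1:**
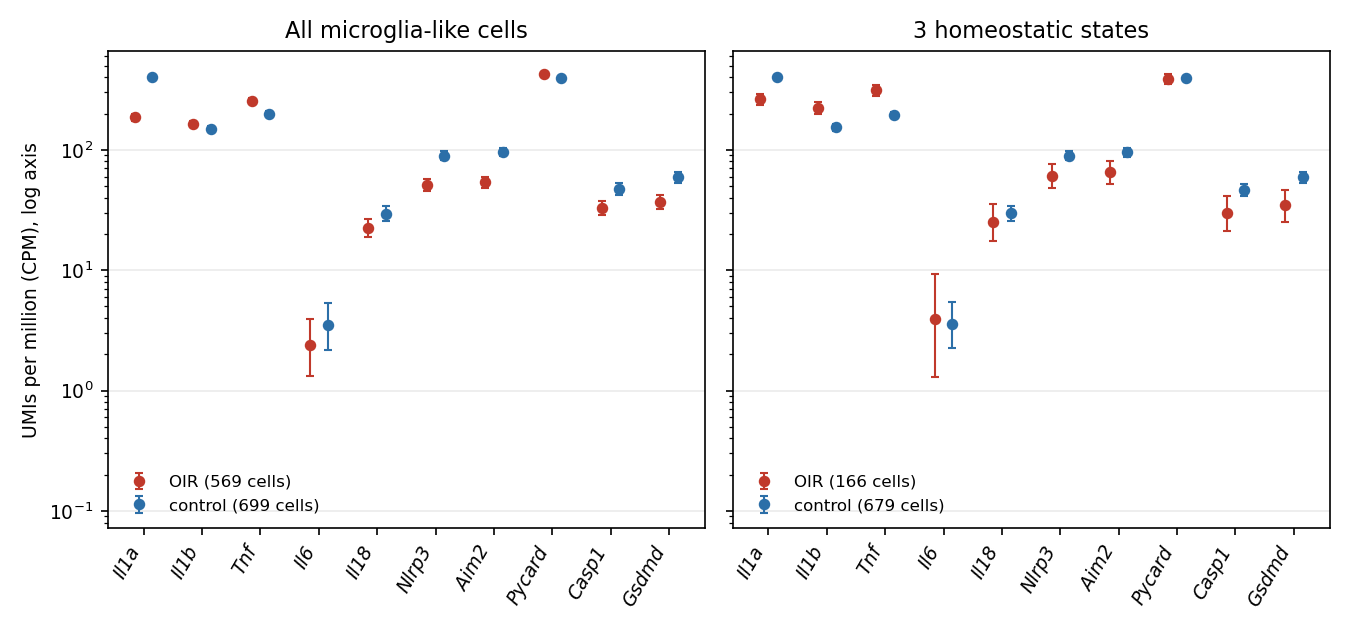
Levels of the 10 members in CPM (vertical log axis) in all microglia-like cells (left) and in the 3 homeostatic states (right), OIR in red and control in blue, with exact 95% Poisson intervals for counting error. Il1a is at 186 CPM in OIR and 401 CPM in control over all microglia-like cells, while Pycard is at 423 CPM and 397 CPM.

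Il1a and Il1b are neighbours on chromosome 2, and Il1a, Il1b and Tnf share a promoter feature that the other members searched lack. Il1a lies at chr2:129299610-129309972 and Il1b at chr2:129364570-129371139, both on the minus strand of build mm10 (GENCODE M21) with 54597 bases between them, and Tnf lies at chr17:35199381-35202007 on the minus strand, between Ltb and Lta. The 250 bases before the RefSeq start (build GRCm38.p6) are shown for these 3 genes and for Pycard, as the member whose ratio between the libraries lay nearest to 0. Capitals mark every match to 5 motifs: the TATA box TATAAA on the gene's strand, and on both strands AP-1 (TGANTCA), C/EBP (TTGC, any 2 bases, AA), the ETS or PU.1 core (GAGGAA) and a 10-letter NF-κB consensus. A match on the other strand is shown as its reverse complement. The windows run from the far end towards the start, at chr2:129309973-129310222, chr2:129371140-129371389, chr17:35202008-35202257 and chr7:127993868-127994117, all minus strand.
Il1a: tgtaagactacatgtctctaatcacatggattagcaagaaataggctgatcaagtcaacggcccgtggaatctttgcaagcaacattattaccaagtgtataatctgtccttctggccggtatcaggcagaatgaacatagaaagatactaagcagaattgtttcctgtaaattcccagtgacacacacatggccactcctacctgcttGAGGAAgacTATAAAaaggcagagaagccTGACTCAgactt
Il1b: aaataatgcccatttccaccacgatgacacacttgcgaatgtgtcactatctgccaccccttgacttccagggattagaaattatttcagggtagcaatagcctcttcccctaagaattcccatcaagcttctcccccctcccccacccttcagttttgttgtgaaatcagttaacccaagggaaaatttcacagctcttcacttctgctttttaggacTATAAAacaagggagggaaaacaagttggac
Tnf: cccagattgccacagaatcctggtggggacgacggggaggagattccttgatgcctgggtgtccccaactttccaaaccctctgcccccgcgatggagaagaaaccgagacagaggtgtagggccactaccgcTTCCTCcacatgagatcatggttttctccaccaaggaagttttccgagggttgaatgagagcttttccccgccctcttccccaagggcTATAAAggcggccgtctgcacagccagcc
Pycard: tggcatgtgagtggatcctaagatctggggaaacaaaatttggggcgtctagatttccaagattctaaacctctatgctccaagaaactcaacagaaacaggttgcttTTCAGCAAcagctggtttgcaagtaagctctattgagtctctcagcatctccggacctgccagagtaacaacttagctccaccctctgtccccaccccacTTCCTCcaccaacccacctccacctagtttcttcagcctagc
TATAAA began 32, 31 and 29 bases before the start of Il1a, Il1b and Tnf. It was in none of the 6 other members with an entry, and in 7.59% of 32841 promoters of the same length. The NF-κB consensus was found in Il6 and Nlrp3, against 3.90% of promoters, and AP-1 in Il1a and Il6, against 6.75%. These are matches of letters, and the absence of a match says nothing about a factor.

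The 3′ untranslated regions of Tnf, Il6, Nlrp3, Il1b and Il1a also hold repeats of ATTTA, the pentamer of AU-rich elements, which are known to shorten the life of cytokine messages. The spliced region of Tnf held 8 such pentamers, that of Il6 6, that of Nlrp3 5, that of Il1b 4 and that of Il1a 3, a number that 34.1% of genes have or exceed. Pycard had 3 in a region of 3004 bases, Il18 and Aim2 had 1 each, and Casp1 and Gsdmd had 0. At least 1 pentamer was present in 64.2% of 20539 genes, and the longer TTATTTATT, with 5 matches in Tnf alone among the members, in 7.36%. The densest windows of 30 bases are shown from the GENCODE M21 transcripts, with ATTTA in capitals, at chr2:129300109-129300138, chr2:129364808-129364837 and chr17:35199679-35199708 on the minus strand.
Il1a: attttatctatgtATTTAtaaatatATTTA
Il1b: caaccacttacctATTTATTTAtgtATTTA
Tnf: attATTTAttATTTATTTAttATTTATTTA

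Counted per cell, Il1a was spread over many cells, while the UMIs of Il1b came from few cells with many each. To compare cells at equal depth, each was thinned to 1500 UMIs, which 515 OIR and 686 control microglia-like cells reached. At that depth a UMI of Il1a was found in 17.7% of OIR cells and 36.9% of control cells, of Il1b in 10.3% and 8.89%, and of Tnf in 20.2% and 19.4%. Nlrp3 was found in 6.80% of OIR cells and 13.4% of control cells, Aim2 in 7.96% and 13.1%, and Pycard in 46.4% and 44.6%. The order of the libraries was thus the one seen in CPM, with Il1a and both sensors in fewer OIR cells and Pycard in a like share. Before thinning, Il1a was in 45.7% of OIR cells and 74.4% of control cells, Il1b in 18.8% and 19.7%, and Tnf in 43.8% and 46.4%. In rod-like cells, at medians of 1493 and 1408 UMIs, at most 2.92% in OIR and 1.11% in control had a UMI of a member before thinning, both for Pycard.

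A depth of 5000 UMIs, chosen after the data were seen, shows how many UMIs a cell held. It was reached by 338 OIR and 569 control cells and left out 231 and 130. There 47.3% of OIR cells and 69.8% of control cells had a UMI of Il1a, and 10.9% and 20.6% had at least 4. For Il1b, 19.8% of OIR cells and 17.8% of control cells had a UMI. The 27 OIR cells and 44 control cells with at least 4 held 76.2% and 78.9% of all Il1b UMIs, so Il1b was concentrated to a like degree in both libraries. A UMI of Tnf was found in 53.0% of OIR cells and 42.7% of control cells, a wider gap than at 1500 UMIs. The cells are not the same at these depths. The Hmox1-led OIR state described below had a median of 2236.5 UMIs, under the 5000, and Tnf in 4 of its 130 cells. The part of this in the wider gap was not tested. Casp1 was seen in 15.7% of OIR cells and 22.0% of control cells, and Gsdmd in 17.2% and 26.7%. Rod-like cells thinned to the same depth had a UMI of a member in at most 2.85% in OIR, for Il18, and 1.10% in control, for Il18 and Pycard.

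**Figure D2:**
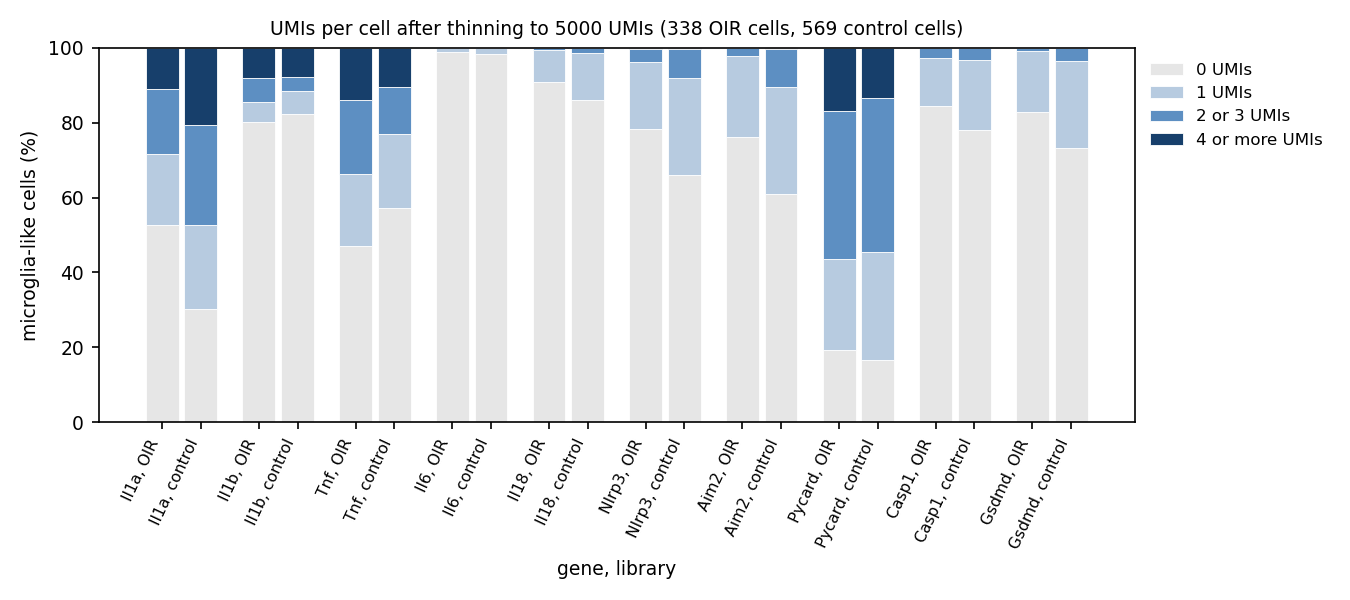
Share of microglia-like cells (vertical axis, %) with 0, 1, 2 or 3, and 4 or more UMIs of each member after thinning to 5000 UMIs, OIR bar left of control bar for each gene. Il1b is at 0 in 80.2% of OIR cells and 82.2% of control cells, yet 7.99% and 7.73% of cells hold 4 or more, and Il1a is at 0 in 52.7% and 30.2%.

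Il1b and Tnf were found in the same cells in part. At 5000 UMIs, 41 of the 67 OIR cells with Il1b also had Tnf, beside 179 of all 338 OIR cells. In control, 52 of 101 Il1b cells had Tnf, beside 243 of all 569 cells. Nlrp3, the sensor upstream of interleukin 1β release, was found in 17 of the 67 OIR Il1b cells, beside 73 of 338, and in 44 of the 101 control Il1b cells, beside 194 of 569. Cells of 1 library are not replicates, and these counts carry no test.

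RNA of genes that answer tissue dissociation moved with these differences. A list of 20 immediate early and heat shock genes, among them Fos, Jun, Egr1 and Klf2, took 1.56% of microglia-like UMIs in OIR and 3.57% in control, and 17 of its 19 genes past the filter were at least 1.5-fold lower in OIR. The median cell had 0.989% of its UMIs from the list in OIR and 3.67% in control. When only cells with 2 to 4% of their UMIs from this list were summed, 149 in OIR and 329 in control, the list took 2.65% in OIR and 3.13% in control, and the picture of the members changed. Tnf had 373 CPM in OIR and 195 CPM in control, a log2 ratio of 0.94 (0.78 to 1.09), and Il1b had 231 CPM and 147 CPM, a log2 ratio of 0.65 (0.46 to 0.84). Il1a had 306 CPM in OIR and 375 CPM in control, a log2 ratio of -0.29 (-0.44 to -0.15). Nlrp3 had 80.1 CPM in OIR and 82.1 CPM in control, a log2 ratio of -0.04 (-0.34 to 0.26), and Pycard again lay at -0.04 (-0.17 to 0.10). Aim2, Casp1, Gsdmd and Il18 lay between -0.46 and -0.38. In these cells 2 of the 9 members past the filter were at least 1.5-fold higher, where 13.2% of all genes were, and 0 were at least 1.5-fold lower, where 7.67% were. The lower calls of Il1a, Nlrp3, Aim2 and Gsdmd were absent among these cells, and Tnf and Il1b were past 1.5-fold, which neither was over all microglia-like cells. This choice of cells was made after the data were seen, and it also changed the mix of the microglia states described below. It held 48 Spp1-led cells of OIR and 7 of control. Of the OIR library it held 10 of 88 Mmp12-led cells, 12 of 57 Top2a-led cells and none of the 130 Hmox1-led cells. The parts of dissociation and of this mix in the differences were not tested.

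**Figure D3:**
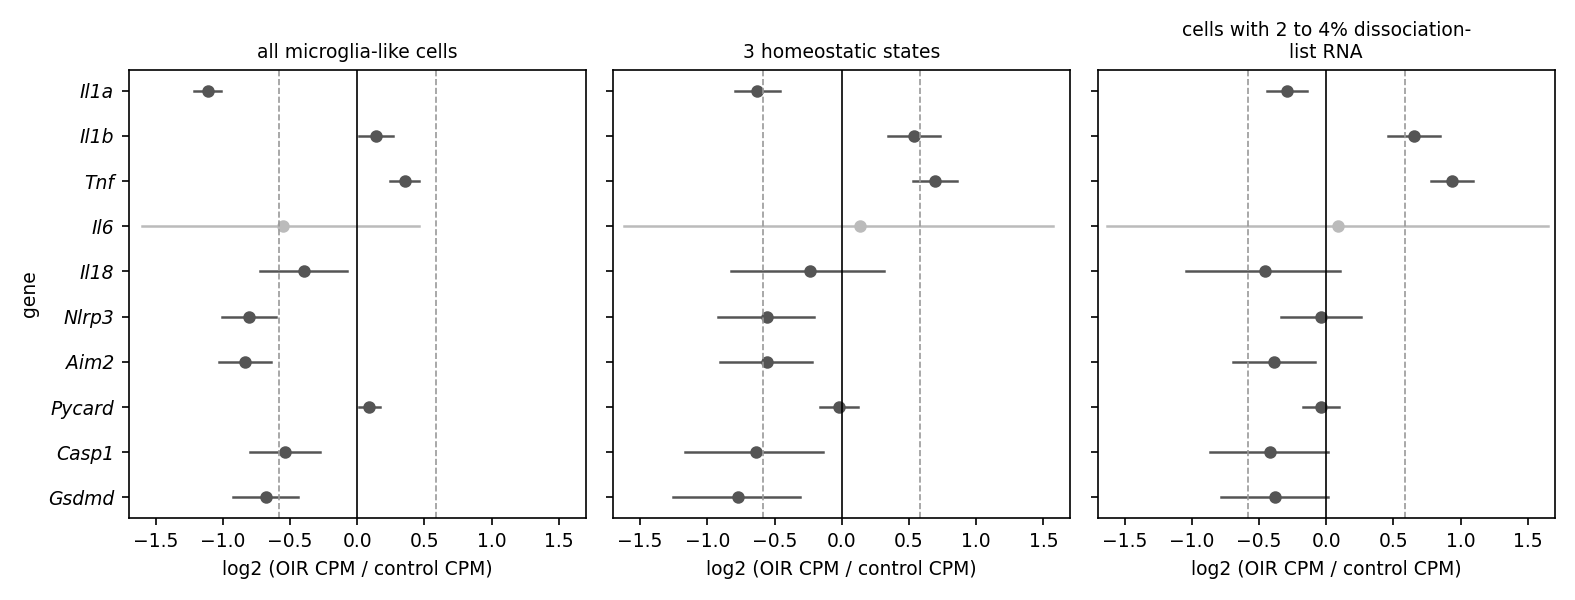
Log2 ratio of OIR over control for each member in all microglia-like cells (left), in the 3 homeostatic states (middle) and in cells with 2 to 4% of UMIs from the dissociation list (right), with exact 95% intervals for counting error as lines, 1.5-fold as dashed lines and Il6, under the level filter, in grey. Il1a lies at -1.11, -0.63 and -0.29 in the 3 panels, and Tnf at 0.35, 0.69 and 0.94.

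The libraries also held different mixes of microglia states. Clustering, in which none of the members or their pathway genes were used, gave 7 microglia-like clusters, named here by their leading gene. Of these, 3 led with homeostatic markers such as P2ry12, Tmem119 and Selplg and held 166 OIR and 679 control cells: an Icam1-led state with 25 OIR and 357 control cells, a P2ry12-led state with 109 and 130, and a Selplg-led state with 32 and 192. Il1a was among the 10 leading genes of the Icam1-led and P2ry12-led states, although it did not enter the clustering. The Spp1-led state, with the lipoprotein lipase gene Lpl and the cathepsin gene Ctsd, held 128 OIR and 12 control cells, and Tnf was among its 10 leading genes. Mmp12-led cells numbered 88 in OIR and 0 in control, dividing Top2a-led cells 57 and 6, and Hmox1-led cells 130 and 2. The name homeostatic rests on leading genes, and marker RNA differed between the libraries. The homeostatic marker list took 1.23% of P2ry12-led UMIs in OIR and 2.12% in control, beside 1.41% in Spp1-led OIR cells. It took 2.20% in OIR and 2.57% in control in Icam1-led cells, and 2.09% and 2.31% in Selplg-led cells. A list for Spp1-high microglia took 0.207% of the UMIs of the 3 states in OIR and 0.0197% in control.

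Summed over the 3 homeostatic states, Il1a was lower and Tnf higher in OIR, but the states made up different shares of the 2 libraries and did not all show it. Il1a had 262 CPM in OIR and 404 CPM in control, a log2 ratio of -0.63 (-0.80 to -0.46). Tnf had 313 CPM in OIR and 193 CPM in control, a log2 ratio of 0.69 (0.53 to 0.86). Taken state by state, Il1a was past 1.5-fold lower in the P2ry12-led state only, and Tnf was past 1.5-fold higher in the Icam1-led state only. Summed, Il1b had 223 CPM in OIR and 153 CPM in control, a log2 ratio of 0.54 (0.34 to 0.73), and of 0.38 without the cell of each library that held most Il1b. Of the inflammasome genes, Casp1 lay at -0.63 (-1.16 to -0.14), Gsdmd at -0.77 (-1.25 to -0.31), Nlrp3 at -0.55 (-0.92 to -0.21) and Aim2 at -0.55 (-0.91 to -0.22), while Pycard lay at -0.02 (-0.16 to 0.12). Here 1 of the 9 members was at least 1.5-fold higher, where 14.7% of all 8012 genes were, and 3 were at least 1.5-fold lower, where 12.1% were. The dissociation list took 2.10% of these UMIs in OIR and 3.60% in control, and the photoreceptor list 0.977% in OIR and 0.319% in control. The part of these lists, and of the unequal homeostatic and Spp1-high marker RNA given above, was not tested.

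The homeostatic states themselves differed in Il1a in the control library, and Tnf was highest in the few Icam1-led cells of OIR. In the control library, Icam1-led cells had 473 CPM of Il1a, 178 CPM of Il1b and 195 CPM of Tnf, and Selplg-led cells had 309 CPM, 135 CPM and 166 CPM. Of the 9 members past the filter, only Il1a was at least 1.5-fold higher in Icam1-led over Selplg-led control cells, at a log2 ratio of 0.61 (0.47 to 0.76), where 11.1% of all genes were. In the 25 Icam1-led OIR cells Tnf reached 649.6 CPM, against 195 CPM in the 357 Icam1-led control cells, a log2 ratio of 1.73 (1.44 to 2.02). It was present in 17 of the 25 cells, and stayed at 561 CPM in OIR and 193 CPM in control without the richest cell of each library. Tnf had 263 CPM in OIR and 224 CPM in control in the P2ry12-led state, a log2 ratio of 0.23 (-0.03 to 0.49), and 231 CPM and 166 CPM in the Selplg-led state, a log2 ratio of 0.48 (-0.02 to 0.94). In the Icam1-led state Il1b had 465 CPM in OIR and 178 CPM in control, but its 83 UMIs in OIR came from 4 of 25 cells, 40 of them from 1 cell, and without that cell the level was 259 CPM. The members higher in Icam1-led OIR cells were Tnf and Il1b, 2 of 9, where 17.8% of all genes were at least 1.5-fold higher. The 3 lower members, where 18.5% of all genes were lower, were Nlrp3, Gsdmd and Il18, with 8, 5 and 2 UMIs in OIR. In the P2ry12-led state Il1a had 183 CPM in OIR and 342 CPM in control, a log2 ratio of -0.90 (-1.17 to -0.63), whereas in the Selplg-led state it had 309 CPM in both libraries, a log2 ratio of 0.00 (-0.41 to 0.39). In the Icam1-led state Il1a had 605 CPM in OIR and 473 CPM in control, a log2 ratio of 0.36 (0.06 to 0.64), so its direction was not the same in the 3 states. Il1b had 203 CPM in P2ry12-led OIR cells and 110 CPM in P2ry12-led control cells, a log2 ratio of 0.89 (0.56 to 1.23), the 1 higher member there, where 13% of all genes were. Il1a and Gsdmd were the 2 lower members, where 16.1% were. The Il1b UMIs of this state came from 14 of 109 OIR cells and 20 of 130 control cells. Of the 182 in OIR, 38 were in 1 cell, and without the richest cell of each library the log2 ratio was 0.86. Il1b was on the other side in the Selplg-led state, at 89.2 CPM in OIR from 17 UMIs and 135 CPM in control, a log2 ratio of -0.60 (-1.40 to 0.12). With Casp1, at 4 UMIs in OIR, it was 1 of 2 lower members there, where 16.3% of all genes were lower. The leading genes of the Icam1-led and P2ry12-led states include Rhob, Klf2 and Ier5 of the dissociation list, so these states are not independent of it.

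Within the OIR library, Il1a, Il1b and Tnf in the Spp1-led state were within 1.5-fold of the homeostatic states, and Il1a and Il1b were lower in the Mmp12-led, Top2a-led and Hmox1-led states. There the Spp1-led cells had 216 CPM of Il1a, 206 CPM of Il1b and 306 CPM of Tnf, against 262 CPM, 223 CPM and 313 CPM in the homeostatic states of that library. None of the 9 members was 1.5-fold apart between them, where 4.95% of all genes were higher and 15.2% lower. The homeostatic states of OIR include the P2ry12-led cells, whose share of homeostatic marker RNA was below that of Spp1-led OIR cells. The part of this in the comparison was not tested. The 12 Spp1-led control cells stood otherwise to the homeostatic cells of their library. Their Il1a was at 203 CPM, near the 216 CPM of Spp1-led OIR cells. Against the 404 CPM of homeostatic control cells, this was a log2 ratio of -0.99 (-1.58 to -0.47). The Spp1-led control cells had no UMI of Il1b, which allows up to 21.0 CPM, against 153 CPM, and 469 CPM of Tnf, against 193 CPM, a log2 ratio of 1.28 (0.90 to 1.64). That limit covers counting error only and not the draw of 12 cells, and Il1b was found in only 138 of 679 homeostatic control cells. Mmp12-led OIR cells had 164 CPM of Il1a, 129 CPM of Il1b and 188 CPM of Tnf, log2 ratios of -0.68 (-0.90 to -0.45), -0.79 (-1.04 to -0.54) and -0.73 (-0.94 to -0.52) to the homeostatic states. With Il18 at -0.68 (-1.44 to 0.07), 4 members were lower in Mmp12-led cells and 0 higher, where 23.3% and 8.06% of all genes were. The 5 inflammasome genes lay between -0.44 and -0.16 in that comparison. Top2a-led cells had 110 CPM of Il1a and 113 CPM of Il1b but 320 CPM of Tnf, against 262 CPM, 223 CPM and 313 CPM in the homeostatic OIR cells. Il1a and Il1b were the 2 members lower in Top2a-led cells, where 25% of all genes were, and 0 members were higher, where 15.5% were. Border macrophage markers took 0.376% of the UMIs of the Top2a-led OIR cells and 0.0247% of those of the homeostatic OIR cells, and their part in these levels was not tested.

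In the shallow Hmox1-led cells 57.3% of all genes were at least 1.5-fold lower than in homeostatic OIR cells. Il1a, Il1b, Tnf, Nlrp3 and Aim2 were among these, as was Il18 on 5 UMIs, and Pycard was not. The Hmox1-led cells had a median of 2236.5 UMIs and led with Hmox1, the heme oxygenase, and the ferritin gene Ftl1. Their Tnf was at 19.6 CPM, against 313 CPM in the homeostatic cells of the OIR library, a log2 ratio of -4.00 (-5.32 to -2.94). Il1a was at 36.4 CPM against 262 CPM, Il1b at 30.8 CPM against 223 CPM, and Nlrp3 at 8.39 CPM against 60.9 CPM, log2 ratios of -2.85 (-3.77 to -2.05), -2.86 (-3.88 to -2.00) and -2.86 (-5.17 to -1.26). Pycard was at 548 CPM in Hmox1-led cells and 387 CPM in homeostatic cells, a log2 ratio of 0.50 (0.26 to 0.74). Aim2 was at 16.8 CPM against 64.9 CPM and Il18 at 14.0 CPM against 25.3 CPM, with log2 ratios of -1.95 (-3.44 to -0.77) for Aim2 and of -0.86 (-2.57 to 0.51), an interval that includes 0, for Il18. Casp1 lay at -0.26 (-1.49 to 0.82) and Gsdmd at 0.61 (-0.25 to 1.42). In this comparison 6 of 9 members were at least 1.5-fold lower, where 57.3% of all genes were, and 1 was higher, where 8.65% were. The count of lower members is near the share of all genes and is no result about the members. A cluster left unnamed, led by Rgs10, also had low cytokine levels and ample Pycard in both libraries. Its 67 OIR cells had 41.4 CPM of Il1a, 66.3 CPM of Il1b, 16.6 CPM of Tnf and 480 CPM of Pycard. Its 128 control cells had 27.0 CPM of Il1a, 0 UMIs of Il1b and of Tnf, which allows up to 11.6 CPM, and 382 CPM of Pycard. Both groups of shallow cells stood apart in other ways. The dissociation list took 0.0842% of the UMIs of Hmox1-led OIR cells and 0.113% and 0.102% of those of Rgs10-led OIR and control cells. The nuclear RNA Malat1 was at 2405 CPM in Hmox1-led OIR cells, 3603 CPM in Rgs10-led OIR cells and 2066 CPM in Rgs10-led control cells, against 24023 CPM and 20289.5 CPM in the homeostatic cells of OIR and control. The part of these differences in the member levels was not tested. Without the Hmox1-led cells, Il1a lay at -1.04 and Tnf at 0.43 over all microglia-like cells.

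**Figure D4:**
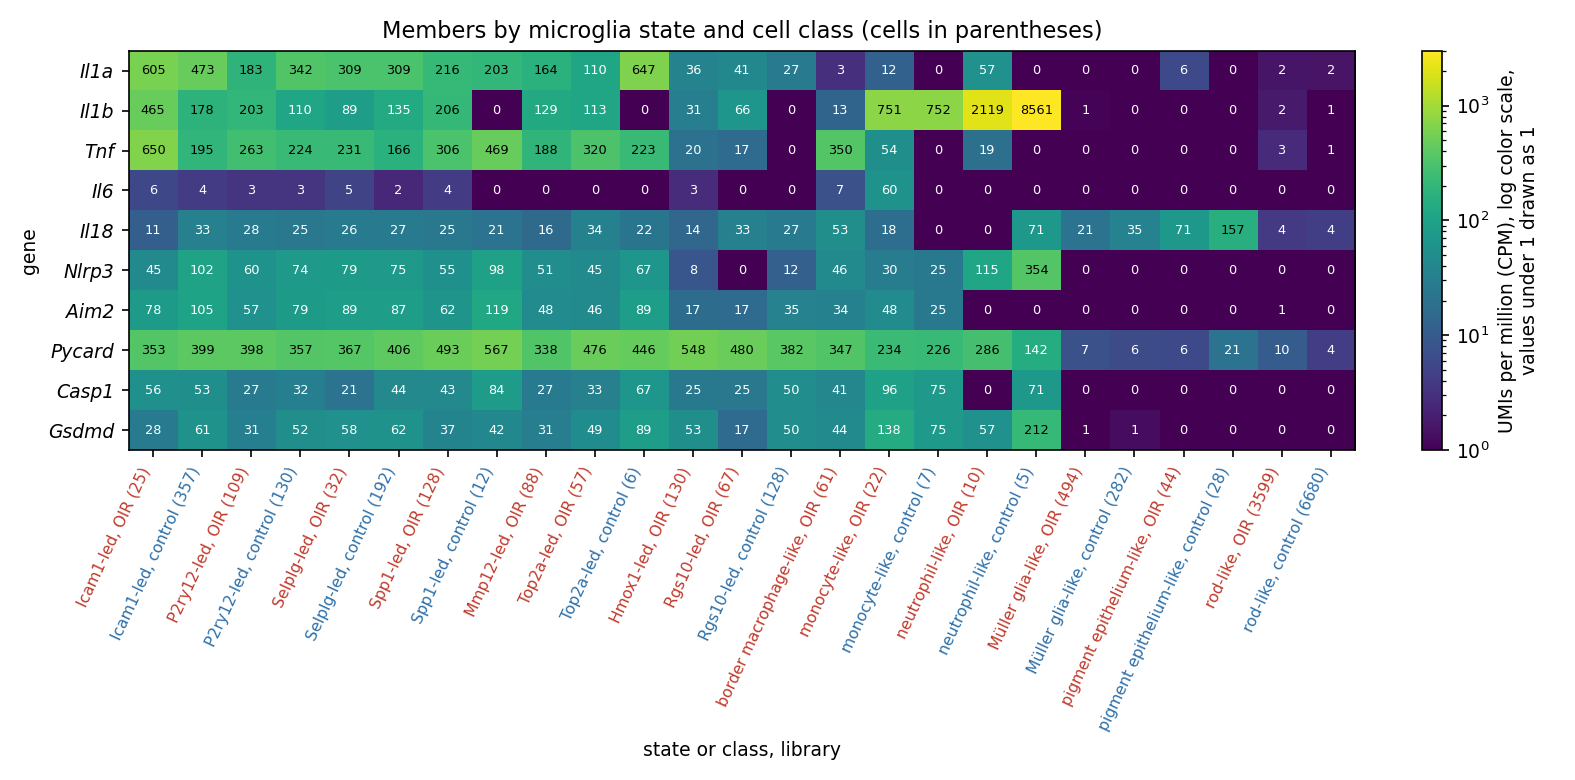
Level of each member (rows) in each microglia state or cell class and library (columns, cells in parentheses, OIR names in red and control names in blue, units with fewer than 5 cells left out), in CPM on a log color scale with the value printed. Il1a, Il1b and Tnf are at most 66.3 CPM in the Hmox1-led and Rgs10-led columns, where Pycard lies between 382 and 548 CPM, and Il1b is highest in neutrophil-like cells.

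Other myeloid classes used different cytokines. Border macrophage-like cells, with Mrc1, Pf4 and Lyve1 among their leading genes, numbered 61 in OIR and 3 in control, so levels are given for OIR. They had 350 CPM of Tnf, in 33 of 61 cells, near the 313 CPM of homeostatic OIR cells, but 2.94 CPM of Il1a from 2 UMIs, a log2 ratio of -6.48 (-9.53 to -4.61), and 13.2 CPM of Il1b. Their Il18, at 52.9 CPM, was at a log2 ratio of 1.06 (0.33 to 1.80) to the 25.3 CPM of homeostatic OIR cells. Against those cells, 1 member was at least 1.5-fold higher, where 16.6% of all genes were, and 3 were lower, where 27.4% were. Tnf with little Il1a and Il1b was thus a feature of the 61 cells kept, whose Pycard was at 347 CPM and Nlrp3 at 45.5 CPM. A gate chosen after seeing the data had left out 25 of the 86 OIR cells of this cluster. In those cells border macrophage marker UMIs did not exceed homeostatic ones. The part of this gate in the low Il1a and Il1b was not tested.

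Monocyte-like cells, 22 in OIR and 7 in control, led with Plac8 and with the antigen-presentation genes H2-Aa, H2-Eb1 and Cd74. They had 751 CPM of Il1b in OIR and 752 CPM in control, in 15 of 22 OIR cells and 4 of 7 control cells. In the OIR library Il1b, Casp1 and Gsdmd were higher in them than in homeostatic cells, at 751 CPM against 223 CPM, 96.2 CPM against 30.1 CPM and 138 CPM against 34.8 CPM, log2 ratios of 1.75 (1.44 to 2.06), 1.68 (0.74 to 2.55) and 1.99 (1.19 to 2.75). These were 3 of 9 members, where 18.3% of all genes were higher, and Il1a, Tnf, Nlrp3 and Pycard were lower, where 37.4% were. All 10 Il6 UMIs of the class came from 1 of the 22 OIR cells. Neutrophil-like cells, 10 in OIR and 5 in control, had 2119 CPM of Il1b in OIR, from 111 UMIs in 8 of 10 cells, and 8561 CPM in control, from 121 UMIs in 5 of 5 cells, a log2 ratio of -2.01 (-2.40 to -1.63). Without the richest cell of each library the levels were 1951 CPM in OIR and 7388 CPM in control, and 28% of the 453 genes past the filter were also at least 1.5-fold lower. Cells of these clusters in which the class-marker UMIs did not exceed the homeostatic-marker UMIs of the same cell, 42 in OIR and 40 in control, had 591 CPM and 608 CPM of Il1b and held 21.4% and 18.8% of all its UMIs.

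Markers of these classes were also found inside the microglia-like cells, and they moved with group. Of 12 neutrophil markers, 9 had a UMI in OIR and 4 in control, with a summed 131 CPM in OIR and 165 CPM in control, and Ly6g, Camp and Ngp were at 0 in both. Of 9 monocyte markers, 8 had a UMI in OIR and 4 in control, at 107 CPM and 7.15 CPM, with Chil3 at 0 in both. All 10 border macrophage markers had a UMI in OIR and 6 in control, at 766 CPM and 96.2 CPM, with F13a1, Cd163, Lyve1 and Clec10a at 0 in control. They were unevenly spread in OIR, at 0.376% of the UMIs of Top2a-led cells and 0.0142% to 0.0428% in the other microglia-like states. Without cells holding 5 or more neutrophil marker UMIs, 551 OIR and 648 control cells were left. The log2 ratio of Il1b was then 0.09 and that of Tnf 0.45. Of the neutrophil markers, S100a8, S100a9, Retnlg, Mmp8 and Ltf were at 0 in control as well. This filter thus cannot show what part neutrophil RNA had there. The part of all these markers in the members' levels was not tested.

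Il18 was the member with the largest share of its RNA outside the myeloid cells. Pigment epithelium-like cells, the layer behind the photoreceptors, had 71.1 CPM in OIR from 12 UMIs and 157 CPM in control from 15 UMIs, a log2 ratio of -1.14 (-2.37 to 0.05). Müller glia-like cells had 21.1 CPM in OIR from 193 UMIs and 34.9 CPM in control from 135 UMIs, a log2 ratio of -0.73 (-1.05 to -0.40), where 10.3% of all genes were at least 1.5-fold lower. Cone-like cells had 13 CPM in OIR and 11.6 CPM in control, and bipolar-like cells 16.4 CPM and 22.9 CPM. Rod-like cells had 3.91 CPM in OIR and 4.39 CPM in control, so the level in Müller glia-like cells was at a log2 ratio of 2.43 (1.94 to 2.95) to free RNA and any rod signal in OIR. A UMI of Il18 was found in 29.8% of Müller glia-like cells in OIR and 35.5% in control, at medians of 14152 and 9198 UMIs, against 1.14% and 1.08% of rod-like cells at medians of 1493 and 1408 UMIs. The Il18 gene, at chr9:50554827-50581840 on the plus strand, overlaps Bco2 and Tex12 of the other strand. Il1a, Il1b, Pycard and Aim2 overlap Gm14023, Il1bos, Gm45205 and Cadm3 in the same way. The strand setting of the counting is not given in the sources used here, so reads of such pairs may not be told apart.

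The genes around the members were called in both directions within most lists in the microglia-like cells. Among receptors and decoys of these cytokines, 6 of 13 passed the filter, 1 was higher and 2 were lower. Il1rn, the natural antagonist of the interleukin 1 receptor, had 18.6 CPM in OIR and 2.38 CPM in control, a log2 ratio of 2.96 (2.18 to 3.85). Il6ra, the binding chain of the interleukin 6 receptor, had 75.8 CPM in OIR and 235 CPM in control, a log2 ratio of -1.63 (-1.78 to -1.48). Il6st, its signalling chain, had 54.2 CPM and 93.2 CPM, a log2 ratio of -0.78. In the homeostatic states Il1rn was under the level filter, with 4 UMIs or 3.16 CPM in OIR and 14 UMIs or 2.29 CPM in control. Of 19 other inflammasome genes, 12 passed the filter, 2 were higher and 5 lower. Ninj1, which ruptures the plasma membrane of dying cells, had 216 CPM in OIR and 61.0 CPM in control, a log2 ratio of 1.82 (1.66 to 1.99). Card19, a CARD-domain gene, lay at 0.92 and Naip5, a sensor of bacterial flagellin, at -0.95.

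Upstream genes were mostly at like or lower levels. Of 20 Toll-like receptor and adaptor genes, 17 passed, 0 were higher and 4 lower, with the receptor gene Tlr3 at -1.24, the kinase gene Irak2 at -0.98 and the adaptor gene Myd88 at -0.93. Of 16 NF-κB subunits and inhibitors all passed, 1 was higher and 9 lower. Bcl3, a nuclear cofactor of NF-κB, had 20.3 CPM in OIR and 5.56 CPM in control, a log2 ratio of 1.87, while the inhibitor gene Nfkbie lay at -1.20 and the subunit gene Relb at -1.03. The list's median was -0.68, beside -0.13 for all genes. Of other cytokine, chemokine and adhesion genes known as NF-κB targets, 11 of 18 passed, 6 were higher and 1 lower, with a median of 1.35. The summed RNA of this list, set by its most abundant genes, was 0.636% of UMIs in OIR and 0.705% in control. Cxcl2, a chemokine for neutrophils, had 166 CPM in OIR and 11.9 CPM in control, a log2 ratio of 3.80 (3.46 to 4.16). Ccl7, a monocyte chemokine, had 138 CPM and 18.6 CPM, a log2 ratio of 2.89, and Csf1, a growth factor of macrophages, 93.4 CPM and 18.3 CPM, a log2 ratio of 2.35. The 1 lower target was Icam1, an adhesion gene that also leads the state with most control cells, at -1.64. The abundant chemokine genes were within 1.5-fold. Ccl3 had 1450 CPM in OIR and 2011 CPM in control, a log2 ratio of -0.47 (-0.51 to -0.43), and Ccl4, Ccl12 and Ccl2 lay at -0.24, -0.09 and 0.06. The shares of all genes called, 11.2% higher and 18.3% lower, stand beside each of these counts. In the homeostatic states 5 of 11 of these NF-κB targets were higher, where 14.7% of all genes were, and 1 lower, where 12.1% were. Their median there was 0.11, beside 0.01 for all genes.

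**Figure D5:**
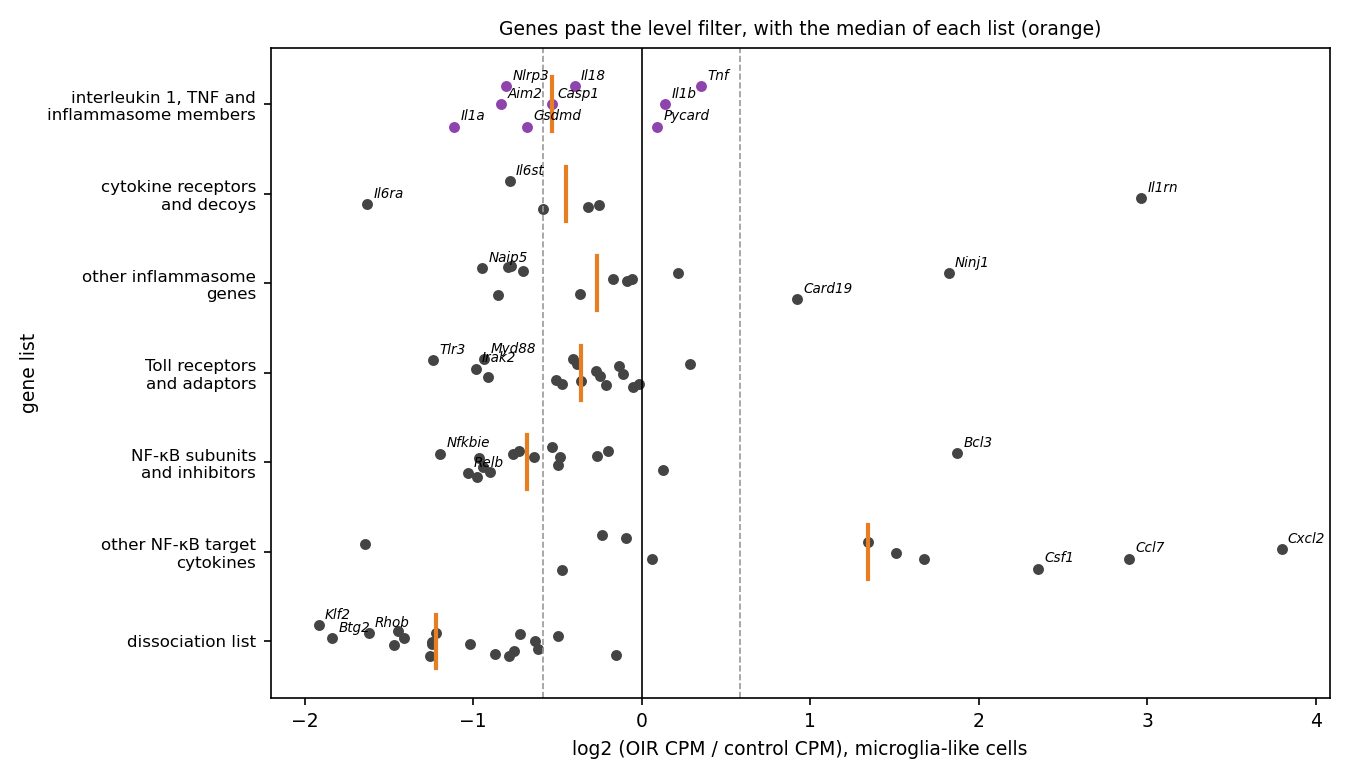
Log2 ratio of OIR over control in microglia-like cells (horizontal axis) for each gene past the level filter, by gene list (rows), with list medians in orange, 1.5-fold as dashed lines, all members named and the 3 genes furthest from 0 named in each other list. The NF-κB subunit list has its median at -0.68, the list of other NF-κB targets at 1.35 and the dissociation list at -1.22.

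Over 30 units of class or state and library with at least 20 cells each, the genes most like each member in log2(CPM + 10) were sought among 12144 genes, as a description of units that share libraries and depth. The units include rod-like and other cells outside the myeloid classes, so r also covers the contrast of myeloid with other cells. Neutrophil-like cells, where Il1b was highest, were too few to be a unit. The gene nearest to Il1a was Gpr84 (Pearson r = 0.98), those nearest to Il1b were Ptk2b (0.97) and Il17ra (0.95), and those nearest to Tnf were Casp4 (0.99) and Ccl2 (0.97). For the sensors they were Cd180 and Tagap for Nlrp3 and Cebpa and Myo1f for Aim2, all at 0.98. Pycard followed Aif1 and Cmtm7 (both 0.99), Casp1 followed Ncf4 and Itgb2 (both 0.98), and Gsdmd followed Igsf6 (0.98) and Tifab (0.97). Il18 had no close companion, with Fzd7 at 0.80 and Zbtb11os1 at 0.79.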

How the data were processed

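The authors deposited UMI counts per gene and cell barcode for 2 libraries. They were made with Cell Ranger 3.0.2 on mm10, per the submitters' processing notes; the chemistry, the cell calling and the strand setting are not stated there. Kept barcodes had 500 or more detected genes and no more than 10% mitochondrial UMIs. Scrublet's own threshold marked under 0.5% of cells, so the highest doublet scores were removed at 0.8% per 1000 cells. Cells were clustered in 2 steps (scanpy 1.11.5, 2000 variable genes without members or pathway genes, 30 components, 20 neighbours, Leiden resolution 1) and named from marker lists. Border macrophage, monocyte and neutrophil clusters were gated per cell by marker UMIs, a step chosen after seeing the data, which kept 61 of 86 and 3 of 32, 22 of 32 and 7 of 12, and 10 of 17 and 5 of 11 OIR and control cells. UMIs were summed per class and library, and a count of 0 was set to 3 for a limit. Ratio intervals are exact conditional binomial. The ratio and calling steps were tested on simulated class sums that held counting error only. The summing, and the spread between cells or mice, were not part of that test. Text names all members, the 3 genes furthest from 0 in each list, and the 2 genes most like each member, of which 1 is not reported here; others were named after their values were seen. Members and lists were chosen with earlier results of these data known.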

Additional observations from a re-analysis of the deposited data

How the results depend on the processing

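No paired analysis was possible because each group is 1 pooled library, and for the same reason no replicate could be left out. Over the settings as reported and 9 others (cell filter, doublets, clustering, variable genes, scaling, free RNA, level filter, the Mmp12-led cluster, photoreceptor RNA) 0 members were higher and 3 or 4 lower, with medians between -0.57 and -0.41. The coarser clustering changed which cells were microglia-like, to 383 in OIR and 824 in control, and is not a check of the same cells. Of 7 settings added after the data were seen, 2 changed these counts: members higher numbered 1 in the homeostatic states and 2 in cells with 2 to 4% dissociation RNA, where members lower numbered 0. Over 17 settings, the log2 ratio of Il1a ran between -1.36 and -0.29, that of Tnf between 0.05 and 0.94, and that of Nlrp3 between -0.89 and -0.04. Il1b ran between -0.12, as the mean of per-cell CPM, and 0.65, and Gsdmd between -0.77 and -0.38. Pycard was below 0 in 2 settings, at -0.02 and -0.04. Shares of cells with a UMI rose with the thinning depth, for Il1a to 30.2% of OIR cells and 50.2% of control cells at 2500 UMIs. Depth limits Il6, with 15 UMIs in OIR and 22 in control, and the states with few cells.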

Other observations

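The gated-out myeloid cells, 42 in OIR and 40 in control, differed in Tnf, with 357 CPM in OIR and 167 CPM in control, a log2 ratio of 1.10 (0.70 to 1.51), and of 1.15 without the richest cell of each library. Their Nlrp3 had 63.9 CPM in OIR and 95.4 CPM in control, a log2 ratio of -0.58 (-1.25 to 0.09), and their Aim2 77.0 CPM and 76.3 CPM. Among all genes of these cells past the level filter, 17% were at least 1.5-fold higher and 23% lower. The homeostatic marker list took 0.866% of the UMIs of these cells in OIR and 1.93% in control. Neutrophil markers took 0.161% and 0.214%, border macrophage markers 0.107% and 0.0606%, and monocyte markers 0.0516% and 0.0456%. The gate does not show that each cell held UMIs of both microglia and another class. Whether microglia or doublets were among them was not tested.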
